A study of Mus musculus with 6 samples.

Results

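Chromatin accessibility was examined at the genes of 5 transcription factors of blood cells, Ikzf1, Ikzf2 and Ikzf3 of the Ikaros family and Runx2 and Runx3 of the RUNX family. Members were all ATAC-seq regions that overlapped the body of 1 of these genes or the 50 kb on either side of it (mm10, GENCODE M21 annotation), 131 of the 112852 regions of the series. A region is the merged span of overlapping peaks from the 6 deposited peak lists. Ikzf1 had 24 regions, Ikzf2 26, Ikzf3 13, Runx2 41 and Runx3 27. ATAC-seq maps open chromatin, because the Tn5 transposase inserts sequencing adapters mainly where DNA is not wrapped or bound.
The series held 3 control and 3 MMF-treated samples of cultured L-GMP cells, leukemic granulocyte-macrophage progenitors that serve as the leukemia stem cells (LSCs) of a murine MLL-AF9 leukemia. Both groups were labelled wild type, carried the MLL-AF9 fusion and were cultured with mouse IL-3, and per the labels the MMF group was treated for 24 h. The legends of the study name a shorter treatment, which could not be settled here. MMF (mycophenolate mofetil) is a prodrug of mycophenolic acid, which inhibits IMPDH and so lowers the supply of guanine nucleotides, and the comparison asked how accessibility changed under that inhibition. No source used here says whether the samples of a group came from separate mice or cultures, so p-values measure the spread between these samples, which may be technical.

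Ikaros proteins are zinc finger factors that bind DNA near the letters GGGAA and act largely with the NuRD chromatin remodeling complex and with co-repressors. Ikzf1 (Ikaros) is needed for lymphoid development and is also expressed in myeloid progenitors, Ikzf2 (Helios) is known from stem cells and regulatory T cells, and Ikzf3 (Aiolos) from B and T lymphocytes. RUNX proteins bind the letters TGTGGT together with their partner Cbfb. Runx2 is the master factor of bone formation and Runx3 acts in T cells, neurons and myeloid cells. Each RUNX gene is transcribed from a distal promoter (P1) and a proximal promoter (P2).

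The control lists held 58496 to 63911 peaks on chromosomes 1 to 19, X and Y, and the MMF lists 80893 to 86556. The number of reads over the summit of a peak, solved from the deposited values, had a median of 14 to 19 across the lists. Accessibility is given below as a level, the summit reads divided by the reads expected at a base from the genome-wide background of the same sample (0.620 to 0.729 in control and 0.676 to 0.909 in MMF samples), so that a level of 100 means 100 times that background. The level is a height at 1 base and not a sum over the length of a region. Where a sample had several peaks in a region, the highest was taken. The sums per gene given further below do grow with the number of regions. Of 10 myeloid progenitor markers, 4 had a promoter peak in all 6 lists, among them Cebpa, Spi1 and Kit. Another 4 had one in some lists only, while Mpo and Prtn3 had none. The MLL-AF9 targets Hoxa9, Meis1 and Pbx3 had a promoter peak in all 6 lists. Promoter peaks were absent in all lists from the B cell markers Cd79a, Pax5, Ms4a1 and Vpreb1, from 5 of 7 T cell markers (Cd3e, Cd3d, Cd3g, Cd4, Cd8a) and from 3 of 7 erythroid markers (Gata1, Alas2, Slc4a1). Among B cell, T cell, erythroid and megakaryocyte markers, Ebf1, Bcl11b, Tcf7, Klf1, Pf4 and Itga2b had a promoter peak in all 6 lists, at mean levels of 13.4 (Pf4) to 113 (Klf1). A further 1 B cell, 3 erythroid and 1 megakaryocyte marker had one in some lists only.

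The results below turn on 5 regions, and 200 bp around the strongest summit of each is printed here, read on the plus strand of GRCm38 (mm10). They are the 4 regions whose change passed the test under both scalings of the data and the gained region that was also gained in lists of equal length. Capitals mark matches on either strand to TGTGGT (RUNX) or TTGCNNAA (C/EBP), and the letters GAGGAAGT (PU.1) and TTGGGAA (Ikaros) were searched as well.
Ikzf1 intron, chr11:11730262-11730461: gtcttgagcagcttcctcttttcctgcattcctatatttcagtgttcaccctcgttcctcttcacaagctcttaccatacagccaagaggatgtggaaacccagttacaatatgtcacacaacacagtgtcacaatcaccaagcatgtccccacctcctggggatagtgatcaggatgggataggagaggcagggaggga
Downstream of Ikzf1, chr11:11785664-11785863: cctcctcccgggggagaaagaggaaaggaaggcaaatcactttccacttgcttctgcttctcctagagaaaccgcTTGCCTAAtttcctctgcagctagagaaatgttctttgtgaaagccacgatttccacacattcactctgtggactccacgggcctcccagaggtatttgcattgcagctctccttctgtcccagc
Downstream of Ikzf2, chr1:69496178-69496377: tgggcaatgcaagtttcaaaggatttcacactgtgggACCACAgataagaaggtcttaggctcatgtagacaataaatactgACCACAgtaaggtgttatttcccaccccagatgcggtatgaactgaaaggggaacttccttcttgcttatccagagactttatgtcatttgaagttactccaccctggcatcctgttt
Ikzf2 internal start, chr1:69683209-69683408: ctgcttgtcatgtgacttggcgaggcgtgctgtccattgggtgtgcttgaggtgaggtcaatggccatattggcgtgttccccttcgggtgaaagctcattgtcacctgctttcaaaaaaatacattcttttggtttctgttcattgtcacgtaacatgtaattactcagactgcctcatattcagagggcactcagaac
Runx2 intron, chr17:44663270-44663469: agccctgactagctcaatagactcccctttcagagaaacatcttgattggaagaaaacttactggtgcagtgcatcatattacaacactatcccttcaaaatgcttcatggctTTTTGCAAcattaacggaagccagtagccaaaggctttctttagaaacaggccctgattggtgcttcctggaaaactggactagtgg
The window downstream of Ikzf2 held 2 RUNX matches, the Runx2 intron and the region downstream of Ikzf1 held 1 C/EBP match each, and the other 2 windows held none of the 4 motifs. Over all 131 member regions, 41 (31.3%) held the RUNX letters in the 200 bp around the summit, beside 25.8% of all 112852 regions. The C/EBP letters were in 15.3% of the member regions and 14.9% of all regions, the PU.1 letters in 8.4% and 8.27%, and the Ikaros letters in 4.58% and 3.58%. A match is a description of the letters and not evidence of binding.

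With MMF, 8 of the 54 member regions that had a peak in all 6 lists rose in level and 1 fell (limma, Benjamini-Hochberg adjusted p under 0.05 over all 41182 such regions). The 8 that rose lay in introns or downstream of the genes, and the 1 that fell lay at an internal start of Ikzf2. Another 6 member regions were gained, with a peak in 3 of 3 MMF lists and 0 of 3 control lists, and 0 were lost. These shares were not above those of the genome. Over all shared regions 21.8% rose and 3.09% fell, beside 14.8% and 1.85% of the members, and 6.0% of all regions were gained and 0.182% lost, beside 4.58% of the members gained. The median log2 difference, MMF minus control, was 0.07 over the 54 members and 0.165 over all shared regions.
How many regions rose or fell depended on the scaling. When the median of the log2 levels of each sample was set to 0, all differences moved down by 0.354 on the log2 scale and the median over all shared regions was -0.19. Then 3 members rose (5.56%, beside 8.76% of all) and 14 fell (25.9%, beside 25.3% of all). The 3 that rose on both scales were in an intron of Ikzf1, an intron of Runx2 and downstream of Ikzf2, and the Ikzf2 internal start fell on both. Each of these is described below with both values. Fewer calls were made on 2 further scales. On the log2 fold enrichment over local background as deposited, the Ikzf1 intron was at 0.34 (adjusted p = 0.0628, limma). On that scale the region downstream of Ikzf2 was at 0.50 (adjusted p = 0.0591) and the Runx2 intron at 0.76 (adjusted p = 0.0328). The Ikzf2 internal start was at 0.085 (adjusted p = 0.838), so its fall was not seen there. On normal scores of the ranks in lists of equal length, limma called 0 of 46 members, beside 674 regions higher and 376 lower of 35988. An unadjusted p under 0.05 was found for 6 of the 46 members, beside 9142 of the 35988 regions.

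**Figure D1:**
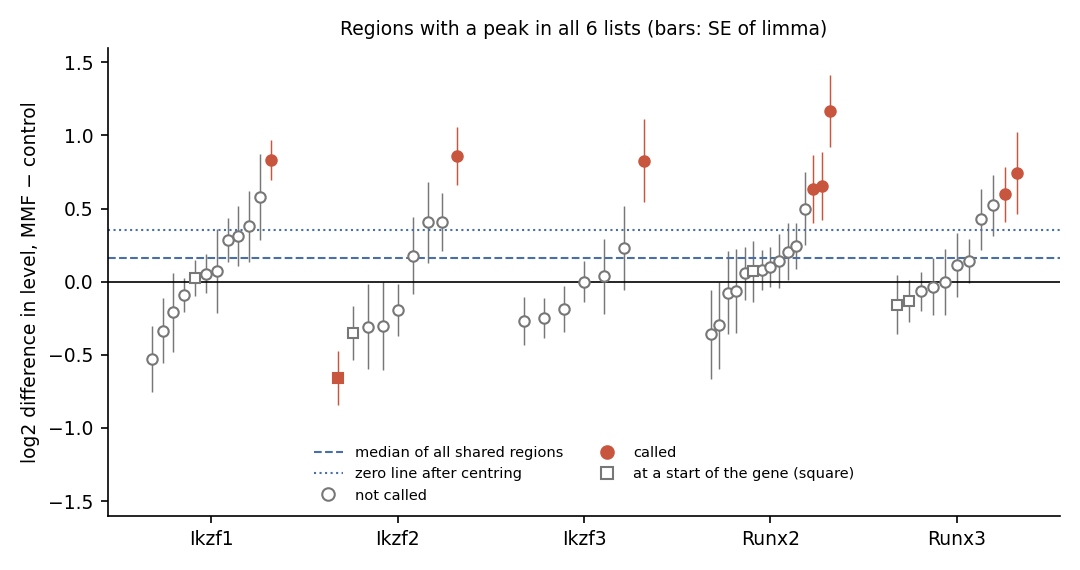
Log2 difference in level (MMF minus control, vertical axis) for the 54 regions with a peak in all 6 lists, grouped by gene, with the SE of limma as bars. Filled points were called, squares lie at a start of the gene, the dashed line is the median of all shared regions (0.165) and the dotted line is where 0 falls after centring (0.354). The 8 called higher are all circles, away from gene starts, and the 1 called lower is a square of Ikzf2.

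Starts here are those of transcripts tagged basic in the annotation. Of the 5 genes, 4 had an open region within 1000 bp of a start in every sample. The Ikzf1 start (chr11:11685550-11686462, which also holds the start of Gm11999) had control levels of 103, 129 and 132 and MMF levels of 118, 112 and 140. The groups overlapped and the log2 difference was 0.03 ± 0.13 (SE, adjusted p = 0.908, limma), and -0.33 after centring (adjusted p = 0.0318). Runx3 was open at both promoters. At its distal promoter P1 (chr4:135120123-135120855, shared with the start of Gm16225) the level was 81.0, 89.7 and 103 in control and 90.2, 85.0 and 73.9 with MMF, and the groups overlapped (log2 difference -0.13 ± 0.14, SE, adjusted p = 0.537). After centring the difference was -0.49 (adjusted p = 0.00476). At its proximal promoter P2 (chr4:135152072-135153662) the level was 43.9, 44.8 and 41.9 in control and 35.2, 36.8 and 45.8 with MMF, which also overlapped (log2 difference -0.16 ± 0.20, SE, adjusted p = 0.617). After centring it was -0.51 (adjusted p = 0.039), so that these 3 starts were called lower on that scale, as were 53.4% of all shared regions at a start. ATAC-seq has no strand, so the level at a start shared with another gene belongs to both.
Runx2 was open at its proximal promoter alone. The region there (chr17:44735599-44736669, with the start of the antisense Runx2os1) had a level of 39.8, 31.8 and 41.9 in control and 41.8, 36.8 and 39.9 with MMF, without a difference beyond the spread (log2 difference 0.07 ± 0.21, SE, adjusted p = 0.847), also after centring (-0.28, adjusted p = 0.297). A second region within 1000 bp of these starts (chr17:44734481-44734674) was a peak in MMF samples 1 and 2, at levels of 24.2 and 28.3, and in none of the control samples. The 4 starts tagged basic at the distal promoter, which drives the bone isoform, had no region within 1000 bp, and the nearest region in any list was 13150 bp away. Ikzf3 had no region at its start either. The nearest lay 5096 bp away and is at the start of the neighbouring gene Zpbp2. Both were without a called peak in all 6 samples, which does not exclude accessibility under the threshold of the lists.

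**Figure D2:**
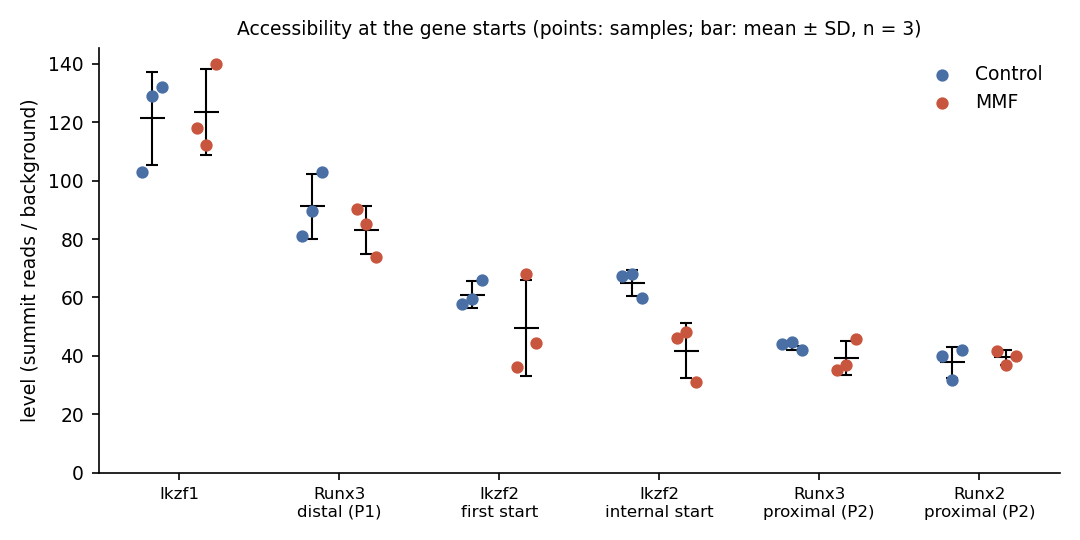
Level (summit reads over background, vertical axis) at the 6 regions with a peak in all 6 lists that lie within 1000 bp of a start of the gene. Points are samples and bars are the mean ± SD (n = 3). At 5 of the 6 regions control and MMF points overlap, and at the Ikzf2 internal start all MMF points, 31.0 to 48.2, lie below the control points, 59.7 to 68.0.

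In control samples the order of the starts was Ikzf1 (121 ± 16.0, SD, n = 3), Runx3 P1 (91.3 ± 11.2), the Ikzf2 internal start (65.0 ± 4.60), the first Ikzf2 start (61.0 ± 4.49), Runx3 P2 (43.6 ± 1.49) and Runx2 P2 (37.8 ± 5.33). The ranges of Ikzf1 and Runx3 P1 met at 103, those of both Ikzf2 starts overlapped, and those of Runx3 P2 and Runx2 P2 met at 41.9. With MMF Ikzf1 and Runx3 P1 were again the highest, while Ikzf2, Runx3 P2 and Runx2 P2 overlapped one another.
The promoter pattern over the 6 samples was most like that of 1600002K03Rik and Gmeb2 for Ikzf1 (root mean square difference of log2 level 0.049 and 0.077 over 6 samples), of Eefsec and Mocs2 for Ikzf2 (0.128 and 0.137), of Ptk2b and Intu for Runx2 (0.079 and 0.085) and of Bbx and Htt for Runx3 (0.048 and 0.068), among 11691 protein-coding genes with a shared promoter region.

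Of the 12 Ikzf1 regions with a peak in all lists, the one with the largest difference was intronic (chr11:11730043-11730792), 43917 bp downstream of the nearest start of the gene. Its level was 71.3, 83.9 and 67.7 in control and 126, 137 and 132 with MMF. The groups did not overlap, with 42 to 58 summit reads in control and 89 to 115 with MMF. The log2 difference was 0.83 ± 0.13 (SE, adjusted p = 1.26e-06, limma) and 0.48 after centring (adjusted p = 0.00326). It stayed called without any 1 sample, at log2 differences of 0.77 to 0.92 and adjusted p-values up to 6.95e-05. An exact permutation test of the 6 levels gave p = 0.1, two-sided, the smallest that 3 samples against 3 allow. With MMF the level at this intron, 132 ± 5.47 (SD, n = 3), stood beside 123 ± 15.1 at the start of the gene.
Of the 6 gained regions, 3 were at Ikzf1. The highest lay downstream of the gene (chr11:11785573-11785894), with levels of 34.1, 35.4 and 32.5 in the MMF lists and no peak in control. Peaks are called against the local background, so a control level well above the lowest of a list could go uncalled there. It was the 1 member region also gained when the 58496 peaks of smallest p were taken from every list, where 2.35% of all regions were gained. The others lay in an intron 22744 bp from the start (chr11:11709001-11709459, levels of 16.5, 21.2 and 13.3) and upstream of the gene at -21026 bp (chr11:11664828-11664991, levels of 13.2, 12.7 and 13.3). In the equal lists these 2 had a peak in 2 and 0 of the MMF lists. The highest level around Ikzf1 was at the start of Fignl1, a AAA ATPase of DNA repair and the 1 other protein-coding gene with a start there (chr11:11808608-11809428). It was 145, 137 and 148 in control and 119, 143 and 143 with MMF, and the groups overlapped. After centring it was lower (-0.45, adjusted p = 0.00144).

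**Figure D3:**
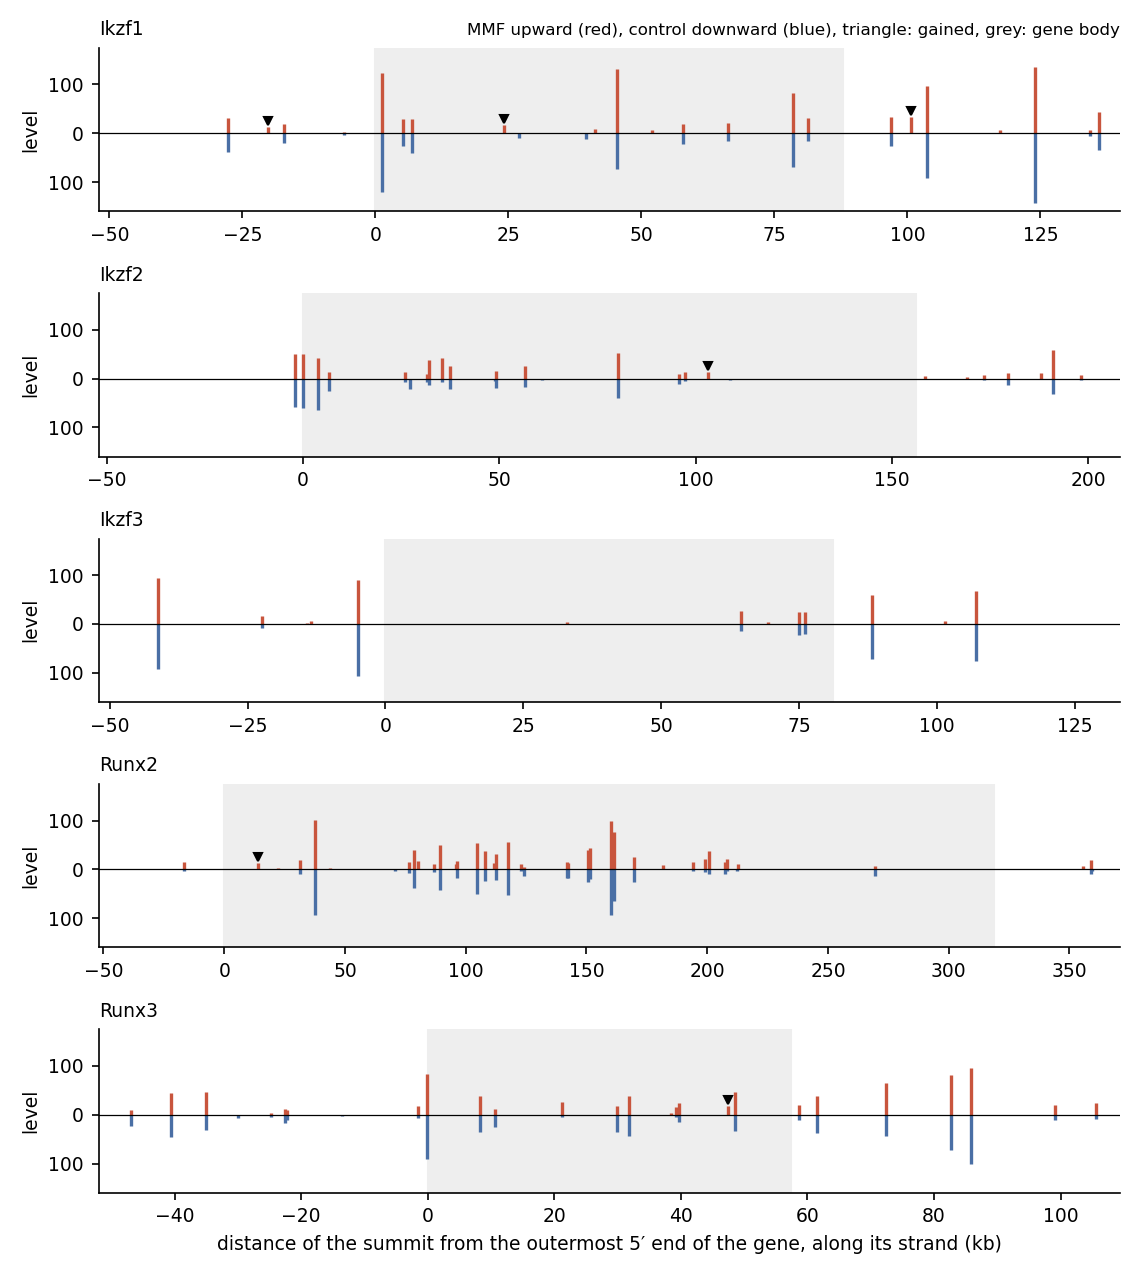
Mean level over the 3 samples of a group at each of the 131 member regions (MMF upward, control downward, a sample without a peak counted as 0) by distance in kb from the outermost 5′ end of the gene along its strand, with the gene body in grey. Triangles mark the 6 gained regions. In Ikzf1 the intronic bar is 132 upward and 74.3 downward, and in Ikzf3 no bar stands at 0 kb.

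Ikzf2 changed in opposite directions at its start and downstream. The region at the internal start (chr1:69682933-69683439, summit in a coding exon, 848 bp inside the start of 3 shorter transcripts) had a level of 67.2, 68.0 and 59.7 in control and 46.2, 48.2 and 31.0 with MMF. All MMF samples were below all control samples. The log2 difference was -0.66 ± 0.18 (SE, adjusted p = 0.0046, limma) and -1.01 after centring (adjusted p = 1.4e-05). Without MMF sample 3, the lowest, it was -0.46 and the adjusted p was 0.0807. As fold enrichment over the local background, which the authors deposited, the difference was 0.09 (adjusted p = 0.838), so the fall was not seen on that scale. At the first start (chr1:69687111-69687899) the level was 57.6, 59.3 and 66.1 in control and 36.3, 68.0 and 44.3 with MMF. The groups overlapped through MMF sample 2 (log2 difference -0.35 ± 0.18, SE, adjusted p = 0.165), and after centring the difference was -0.70 (adjusted p = 0.00177).
Downstream of Ikzf2 a region that holds both RUNX matches printed above (chr1:69496078-69496693) lay 187879 bp from the nearest start. Its level was 34.3, 36.2 and 25.8 in control and 57.2, 60.9 and 54.7 with MMF. The groups did not overlap, and the log2 difference was 0.86 ± 0.20 (SE, adjusted p = 0.000612, limma) and 0.50 after centring (adjusted p = 0.0399). It stayed called without any 1 sample. A gained region lay in an intron (chr1:69583957-69584267, levels of 15.4, 12.7 and 14.8 with MMF).

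Runx2 had the largest log2 difference of all 54 tested members. The intronic region at chr17:44663242-44663750, 72264 bp from the nearest start, had a level of 15.1, 21.7 and 21.0 in control and 35.2, 55.2 and 39.9 with MMF. The groups did not overlap, at 11 to 15 summit reads in control and 27 to 39 with MMF, and the log2 difference was 1.17 ± 0.25 (SE, adjusted p = 0.000158, limma) and 0.81 after centring (adjusted p = 0.00671). It stayed called without any 1 sample. A neighbouring region (chr17:44663907-44664387) had levels of 26.1, 21.7 and 27.4 in control and 40.7, 31.2 and 45.8 with MMF, and a region closer to the proximal promoter (chr17:44706509-44706777, 29002 bp away) had 26.1, 23.1 and 22.6 in control and 36.3, 41.1 and 35.5 with MMF. Neither pair of groups overlapped, with log2 differences of 0.64 ± 0.23 (SE, adjusted p = 0.0353) and 0.65 ± 0.23 (adjusted p = 0.031). After centring these were 0.28 and 0.30 (adjusted p = 0.364 and 0.333). Runx2 also had 1 gained region, in an intron that overlaps Supt3 (chr17:44800609-44801076, levels of 9.9, 17.0 and 11.8 with MMF). The highest mean level in its span, 97.4, was at the start of Supt3 (chr17:44776688-44777786), with 103, 99.8 and 80.6 in control and 102, 118 and 81.3 with MMF, and an intronic Runx2 region (chr17:44654438-44655133) had a mean of 96.3 with overlapping values. Supt3 encodes a subunit of the SAGA transcription complex.

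**Figure D4:**
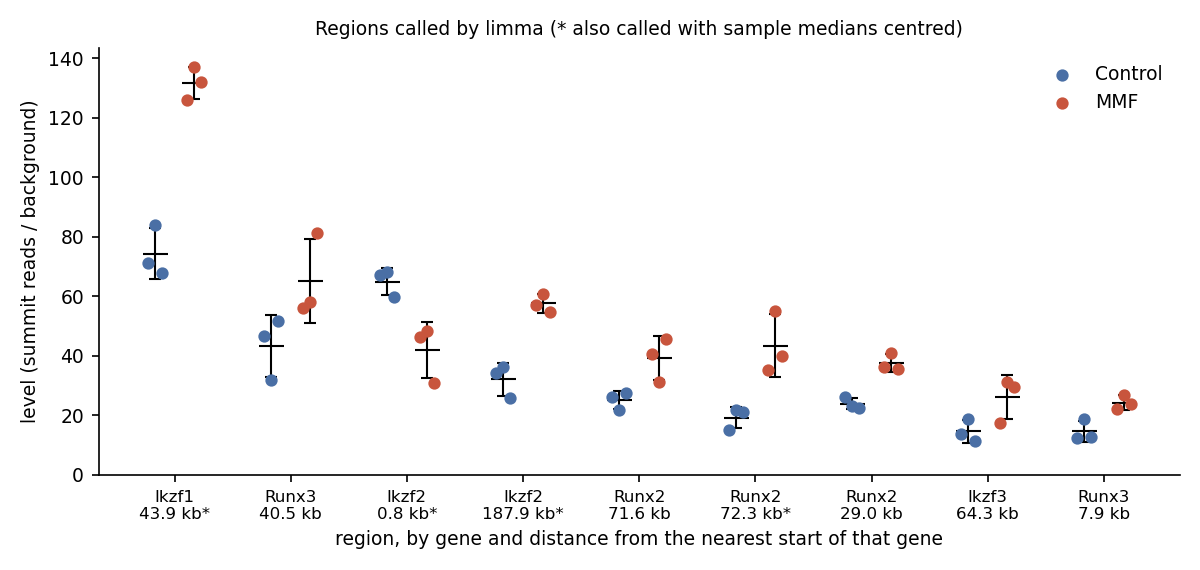
Level (vertical axis) of the 9 regions called by limma in each sample (points) with the mean ± SD of each group (n = 3), by gene and distance from its nearest start. The 4 regions with a star were also called after centring. Of the 9, the Ikzf2 region at 0.8 kb is lower with MMF, and at the Ikzf3 region the MMF points, 17.6 to 31.2, overlap the control points, 11.3 to 18.8.

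Runx3 rose at a pair of regions away from its promoters. An intronic region 7873 bp from P2 (chr4:135160236-135160505) had levels of 12.3, 18.8 and 12.9 in control and 22.0, 26.9 and 23.7 with MMF (log2 difference 0.74 ± 0.28, SE, adjusted p = 0.041, limma). A region downstream of the gene (chr4:135192624-135193402) had 46.7, 31.8 and 51.6 in control and 56.1, 58.1 and 81.3 with MMF (log2 difference 0.60 ± 0.19, SE, adjusted p = 0.0122). The groups did not overlap in either. After centring the differences were 0.39 and 0.24 (adjusted p = 0.289 and 0.323). Without control sample 2 or MMF sample 3 the downstream region lost its call (adjusted p = 0.151 and 0.155), and the intronic region lost it without any sample other than control sample 2 (adjusted p up to 0.141). The gained Runx3 region was intronic (chr4:135167986-135168387, levels of 19.8, 22.7 and 13.3 with MMF). The highest level lay 53940 bp from P2, beyond the end of the gene (chr4:135206003-135206645), with 98.8, 110 and 93.5 in control and 91.3, 108 and 90.2 with MMF, with overlap (log2 difference -0.07 ± 0.13, SE, adjusted p = 0.77). After centring it was lower (-0.42, adjusted p = 0.00983).
At Ikzf3 a single region rose, in an intron (chr11:98481358-98481613), with 13.7, 18.8 and 11.3 in control and 17.6, 31.2 and 29.6 with MMF. The groups overlapped through MMF sample 1 (log2 difference 0.83 ± 0.28, SE, adjusted p = 0.024, limma), and after centring it was 0.47 (adjusted p = 0.196). The call was lost without control sample 1 or 3 or MMF sample 2 or 3 (adjusted p = 0.0578, 0.114, 0.139 and 0.108). The 3 highest levels around Ikzf3 were at the starts of Zpbp2 (chr11:98550896-98551772, 93.3, 111 and 114 in control and 85.8, 86.4 and 96.1 with MMF), Ormdl3 and Mien1, which are neighbours. None of these was called on the levels, and all 3 were lower after centring (-0.60, -0.35 and -0.54, adjusted p = 0.000289, 0.04 and 0.00502). The 2 weaker Runx2 regions, not called after centring, also depended on single samples. The region next to the strongest one was not called without control sample 1 or 2 or MMF sample 1 or 3 (adjusted p = 0.0519, 0.119, 0.119 and 0.183), and the one nearer the promoter was called only with control sample 1 left out (adjusted p up to 0.122 without the others), although it was also called on log2 fold enrichment (0.64, adjusted p = 0.0234, limma).

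Of the 6 shared regions at a start of a member gene, 0 rose, 1 fell and the median log2 difference was -0.15. Together with the 6 shared regions at starts of other genes, the median over all 12 at a start was -0.11, with the same 1 call. Of the 42 shared regions at no start tagged basic, 8 rose, 0 fell and the median was 0.16. Over the genome, the 13409 shared regions at a start of any gene had a median of -0.07, with 6.34% risen and 6.37% fallen, and the 27773 others a median of 0.33, with 29.2% risen and 1.5% fallen. The difference between starts and other regions was not tested among the members.

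Summed over the shared regions of each gene and its flanks, the level at Runx2 was 609, 613 and 592 in control and 689, 720 and 683 with MMF, without overlap (log2 difference 0.21 ± 0.06, SE, adjusted p = 0.00263, limma over 17955 protein-coding genes). At Ikzf1 it was 687, 686 and 719 in control and 734, 771 and 797 with MMF (0.14 ± 0.06, adjusted p = 0.0478). Runx3 had 552, 542 and 558 in control and 570, 650 and 588 with MMF (0.13 ± 0.06, adjusted p = 0.0959). Ikzf2 had 332, 334 and 319 in control and 288, 385 and 315 with MMF (-0.01 ± 0.08, adjusted p = 0.964), and Ikzf3 379, 438 and 402 in control and 386, 384 and 377 with MMF (-0.09 ± 0.07, adjusted p = 0.387). Thus 2 of 5 genes were called higher, Runx2 and Ikzf1, beside 22.7% of all genes, and 0 lower, beside 6.69%. The sums include the starts of neighbouring genes and the called regions described above, so they are not separate results. The Ikzf1 intron, at a mean of 74.3 in control and 132 with MMF, is part of the Ikzf1 sum, at 697 and 767. The Ikzf1 call was lost without control sample 1 or 2 or MMF sample 2 or 3 (adjusted p = 0.126, 0.142, 0.0758 and 0.219), and the Runx2 call held without each sample in turn. After centring neither was called (0.11 for Runx2, adjusted p = 0.0784, and 0.04 for Ikzf1, adjusted p = 0.513), and Ikzf3 was lower (-0.18, adjusted p = 0.0217), where 15.5% of all genes were called higher and 22.4% lower. The flanks of Ikzf3 hold the starts of Zpbp2, Ormdl3, Mien1 and Grb7. Over the Ikzf3 gene body alone, before centring, the log2 difference had the other sign, at 0.353 ± 0.165 (SE, adjusted p = 0.126, limma).

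The number of peaks around Runx2 was 22, 25 and 22 in control and 33, 31 and 32 in the MMF lists. Ikzf1 had 15, 16 and 15 in control and 21, 21 and 18 with MMF, and Ikzf3 8, 8 and 9 in control and 10, 11 and 10 with MMF. For these 3 genes every MMF list held more peaks than every control list, as for 39.5% of 19687 protein-coding genes. Ikzf2 (17, 15 and 12 against 20, 15 and 20) and Runx3 (22, 23 and 17 against 25, 19 and 21) overlapped. In lists of equal length the counts overlapped for all 5 genes, with Runx2 at 20, 22 and 22 in control and 20, 19 and 22 with MMF, and 5.24% of all genes were then higher without overlap.

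**Figure D5:**
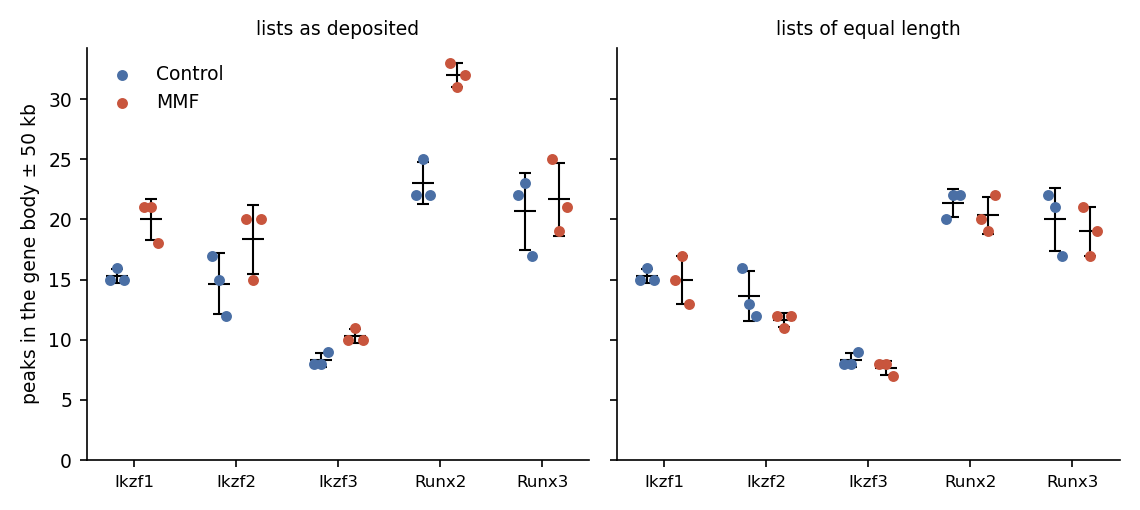
Number of peaks in the gene body ± 50 kb (vertical axis) for each gene in the lists as deposited (left) and in lists cut to 58496 peaks each (right). Points are samples and bars are the mean ± SD (n = 3). The MMF points of Ikzf1, Ikzf3 and Runx2 lie above the control points on the left, and all groups overlap on the right.

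The promoters of related genes and partners were compared with the same test. Where a gene had several promoter regions, the one of highest mean level among those in all 6 lists was used. Runx1, Gatad2a and Mta1 had 3 promoter regions each, and the others of Runx1 and Gatad2a are not described. Of 23 genes, 22 had a promoter region in all 6 lists and were tested, and 1 rose and 2 fell (limma), beside 6.34% and 6.37% of all shared regions at a start. The region used for Runx1, the RUNX factor of definitive hematopoiesis, rose from 77.2 ± 4.27 to 108 ± 23.3 (SD, n = 3, log2 difference 0.46 ± 0.14, SE, adjusted p = 0.0107). Whether it lies at P1 or P2 was not determined. Gatad2a, a subunit of NuRD, fell from 172 ± 5.68 to 133 ± 6.98 (log2 difference -0.37 ± 0.11, adjusted p = 0.00908). Ddb1, the adaptor of the cereblon ubiquitin ligase through which immunomodulatory drugs degrade human IKZF1 and IKZF3, fell from 119 ± 13.9 to 89.0 ± 16.9 (log2 difference -0.43 ± 0.14, adjusted p = 0.0136). The RUNX partner Cbfb (111 ± 7.81 and 104 ± 10.8), Ikzf5 (100 ± 5.75 and 92.1 ± 14.9) and Ikzf4 (16.0 ± 4.14 and 20.2 ± 1.77) were not called. Nor were Chd4, the ATPase of NuRD (40.9 ± 7.72 and 40.3 ± 4.46), its deacetylases Hdac1 (83.5 ± 6.17 and 80.7 ± 4.58) and Hdac2 (76.0 ± 1.73 and 75.7 ± 10.0), or the substrate receptor Crbn (50.9 ± 4.98 and 47.3 ± 5.79). None of the 6 co-repressors was called, at log2 differences of -0.25 for Sin3a and -0.07 for Tle3, for example. The median log2 difference of the 22 was -0.12, beside -0.07 over all shared regions at a start. After centring 0 rose and 18 fell, beside 2.11% and 53.4% of all shared regions at a start, among them Gatad2a (-0.72) and Ddb1 (-0.78), and Runx1 was at 0.11 (adjusted p = 0.587). Mta1 had a promoter peak in 3 of the 6 lists and was not tested.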

How the data were processed

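ATAC-seq peaks of 3 control and 3 MMF-treated L-GMP samples were used as the authors deposited them. Per the labels, the processing named FastQC, Trim Galore, Bowtie2 and MACS2 with mm10, and the study's methods say that peaks were called on each sample separately. In the deposited lists the fold enrichment is a ratio to the local background, p and q are −log10 values, and the deposited score was not used. Versions and MACS2 options are not given in the sources used here. Coordinates were read against GRCm38.

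The enrichment equals (reads + 1) / (background + 1), so together with the Poisson p it gave the whole summit reads and the background of 100% of peaks within 0.05%. Peaks on chromosomes 1 to 19, X and Y were merged into regions (overlap of at least 1 bp). Shared regions, found in every list, were tested on the log2 level with limma 3.58.1 in R 4.3.3 (trend, no block, adjusted p 0.05), as were sums per gene (body ± 50 kb). The levels replace ranks within lists, which move with list length. Regions without a peak in some list have no value there, so they were compared by presence alone, and counting error of few reads limits weak peaks.

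The members and lists were chosen with earlier results of these data known. Named were, per gene, each promoter region (within 1000 bp of a start), each gained, lost or called region and the highest region, the listed partner genes and marker genes, and the 2 most alike genes per member. Some marker genes are not reported here. Alternatives covered list length, q, scaling, ranks, windows, each sample left out and a replicate block. Steps were tested on simulated data. Sequences came from the RefSeq copy of GRCm38 with pysam 0.24.0, and Python 3.11.15 was used.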

Additional observations from a re-analysis of the deposited data

How the results depend on the processing

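Gained member regions numbered 6 and lost ones 0. With a peak required in at least 2 of 3 lists they were 18 and 4 of 131, beside 15390 and 1155 of all 112852 regions. In lists of equal length 1 of 109 was gained, beside 2020 of all 85883. Leaving out 1 sample gave 7 to 12 gained and 0 to 2 lost, beside 8318 to 10537 gained and 349 to 585 lost over all 112852 regions. The 2 of 3 rule and leaving out a sample both ask for fewer lists, so these counts could stay or rise but not fall. Fixed windows, a stricter q, the gene body alone and flanks of 100 kb kept the counts within 1.5 times. The 8 member regions called higher and 1 called lower became 3 and 14 after centring, 1 and 0 by ranks in whole lists, 0 and 0 by ranks in lists of equal length, 4 and 0 by log2 fold enrichment, and 4 to 6 and 0 to 2 without 1 sample. By ranks in lists of equal length limma called 674 regions higher and 376 lower over the genome. Over all shared regions the 8958 higher and 1271 lower became 3609 and 10423 after centring, 3179 and 97 by ranks in whole lists, and 5501 and 133 by log2 fold enrichment. With a mean of at least 20 summit reads fewer regions were tested, and 5830 of 25910 were higher, beside 8958 of 41182. Without the variance trend 399 were lower, and without MMF sample 1, 786 were lower. The Ikzf2 internal start changed sign by ranks in whole lists (0.056) and by log2 fold enrichment (0.085), and a Runx2 intronic region beside the strongest one by ranks in lists of equal length (-0.15). The cause was not tested.

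The 2 gene sums called higher and 0 lower became 0 and 1 after centring and 0 higher as a mean of log2 values, with 1 to 3 higher and 0 lower without 1 sample. Over all 17955 genes 4083 higher and 1202 lower became 2776 and 4015 after centring, and 4819 and 450 as a mean of log2 values. In the gene body alone 13769 genes were tested, and 1914 were higher and 611 lower. Without control sample 2 and without MMF sample 1, 781 and 753 genes were lower. The 3 genes with more peaks in every MMF list became 0 in lists of equal length. Whether same-numbered samples were paired is not known here. The correlations of same-numbered deviations lay between -0.003 and 0.004, which cannot decide it, because counting error of few reads could hide a pairing. With the replicate block 8 member regions were higher and 1 lower, 8889 and 1289 over all regions, and 2 genes were higher.

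Presence calls rest on the authors' threshold and list length, and regions with few summit reads, such as those gained at levels near 13, lie close to it.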
